A study of Mus musculus with 24 samples.

Results

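The 8 genes described here encode the actins of non-muscle cells and the small proteins that hold, load or remove actin subunits. They are the actins Actb and Actg1, the profilins Pfn1 and Pfn2, the cofilins Cfl1 and Cfl2, and the beta-thymosins Tmsb4x and Tmsb10. They were taken by symbol from the 55254 genes of the count tables in all 24 libraries, and the group was chosen by the log2 fold change and adjusted p of Pfn2, which made it a differentially expressed gene (DEG) in 1 comparison, Ogg1-/- against WT in NeuN+ nuclei. All 8 passed the filter on low counts, in which 30132 genes were tested in NeuN+ libraries, 31863 in NeuN- libraries and 33523 over both.

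Nuclear RNA was sequenced from hippocampal nuclei of male mice aged 6 months, on a C57BL/6N background, that were wild type (WT), Mutyh-/-, Ogg1-/- or double knockouts carrying both deletions (DKO). Ogg1 and Mutyh encode DNA glycosylases of the repair of oxidised bases, and the study asked how their loss alters the epigenome and gene expression of neurons and other cells. Both alleles are lost in every cell of the animal rather than in 1 cell type. Nuclei were sorted by flow cytometry with an antibody to NeuN, the neuronal nuclear protein made from Rbfox3, into NeuN+ and NeuN- fractions, which gave 3 libraries of each genotype and fraction. For each genotype, nuclei of 3 animals were pooled, and whether the 3 libraries of a group came from separate pools is unclear, so the p-values measure only the spread between these libraries, which may be technical. The labels give each fraction its own lanes, hence the lane and the cell type cannot be told apart.

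Libraries held 56563586 to 96192142 counts (median 70434612), and no pair of libraries held the same values. The summed level of 8 neuron markers was 5976 to 6934 CPM (counts scaled to the library size) in NeuN+ libraries and 391.9 to 559.5 CPM in NeuN- libraries, and that of 5 oligodendrocyte markers was 117.4 to 139.5 CPM in NeuN+ and 4498 to 6764 CPM in NeuN- libraries. No marker of either list was at 0 in any group. Groups are named by their labels, and the targeted genes did not follow them in gene-level counts: against WT, Ogg1 differed by 0.049 (log2) in NeuN+ libraries labelled Ogg1-/- and by 0.012 in those labelled DKO, whereas Mutyh was higher by 3.15 and 2.99 in NeuN+ libraries labelled Mutyh-/- and DKO (edgeR's quasi-likelihood test, adjusted p = 2.34e-08 and 3.06e-08). Reads of exons inside and outside a deletion are summed in these counts.

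Actin exists as single subunits and as filaments, and cells turn one form into the other all the time. Profilins bind single subunits and hand them to the growing end, cofilins cut filaments and free subunits from the old end, and beta-thymosins hold subunits back from assembly. In neurons this turnover shapes growth cones and dendritic spines, the small protrusions that carry most excitatory synapses, and Pfn2 is the profilin typical of brain. The amount of free actin is also read by cofactors of the transcription factor Srf. The binding sequence of Srf, the CArG box, is known from actin gene promoters.

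The levels of the members in WT were first set in order per length, as CPM divided by the length of all annotated exons in kb. In WT NeuN+ nuclei Actb was the highest with 63.4 ± 3.47 CPM per kb (SD, n = 3), followed by Actg1 with 33.2 ± 3.9, Tmsb4x with 26.4 ± 0.842, Cfl1 with 16.1 ± 1.12, Pfn2 with 11.1 ± 0.238, Tmsb10 with 5.87 ± 0.587, Pfn1 with 3.95 ± 0.189 and Cfl2 with 1.53 ± 0.139 CPM per kb. In WT NeuN- nuclei the order was Actb with 105 ± 6.89 CPM per kb, Actg1 with 33.5 ± 2.87, Tmsb4x with 22.7 ± 1.98, Cfl1 with 15.9 ± 0.795, Pfn2 with 6.26 ± 0.281, Pfn1 with 5.5 ± 0.204, Cfl2 with 2.82 ± 0.153 and Tmsb10 with 2.04 ± 0.22. The ranges of neighbours in both orders did not overlap. Beta actin thus led in both fractions, and Tmsb10 stood above Pfn1 and Cfl2 in neurons and last in the other nuclei. The 3 knockouts had the WT order in each fraction, except that Tmsb4x (21.4 CPM per kb) stood just above Actg1 (21.1) in NeuN- libraries labelled Mutyh-/-, where the ranges of these genes overlapped. Actg1 and Tmsb4x also overlapped in all 3 knockouts of NeuN+. The other neighbours that overlapped were Tmsb10 with Pfn1 in Mutyh-/- and Cfl1 with Pfn2 in DKO of NeuN+, and Pfn2 with Pfn1 in Mutyh-/-, Actg1 with Tmsb4x in DKO and Cfl2 with Tmsb10 in DKO of NeuN-.

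Actb, the most abundant actin of non-muscle cells, lies on chr5:142903115-142906754 (minus strand; all gene positions are GRCm38). In NeuN+ nuclei its level was 147, 165 and 159 CPM in WT, 135, 154 and 99.0 CPM in Mutyh-/-, 117, 107 and 89.3 CPM in Ogg1-/- and 115, 122 and 93.0 CPM in DKO. All libraries of Ogg1-/- and DKO lay below all of WT, whereas those of Mutyh-/- overlapped it. In NeuN- nuclei its level was 321, 320 and 285 CPM in WT, 225, 250 and 197 CPM in Mutyh-/-, 233, 205 and 227 CPM in Ogg1-/- and 267, 232 and 180 CPM in DKO, so that each knockout lay below WT in every library. No test of Actb passed: its log2 fold change was -0.28 in Mutyh-/- and -0.51 in DKO of NeuN+ against WT (edgeR, adjusted p = 0.287 and 0.12), and -0.46, -0.48 and -0.45 in Mutyh-/-, Ogg1-/- and DKO of NeuN- (adjusted p = 0.174, 0.163 and 0.204).

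Actg1, the gamma actin that differs from beta actin in a few residues at its start, lies on chr11:120345690-120348542 (minus strand). In NeuN+ nuclei it was at 71.3, 91.1 and 82.2 CPM in WT, 65.3, 65.3 and 47.5 CPM in Mutyh-/-, 57.3, 53.3 and 47.3 CPM in Ogg1-/- and 58.0, 62.8 and 44.0 CPM in DKO. Every knockout library was below every WT library. The log2 fold change was -0.46 in Mutyh-/- (adjusted p = 0.108) and -0.57 in DKO (adjusted p = 0.0861), neither of which passed. In NeuN- nuclei Actg1 was at 105, 97.9 and 88.9 CPM in WT, 60.4, 61.5 and 60.9 CPM in Mutyh-/-, 70.2, 65.6 and 80.1 CPM in Ogg1-/- and 84.7, 74.3 and 59.2 CPM in DKO, again with no knockout library as high as WT. It fell in NeuN- libraries labelled Mutyh-/-, where the log2 fold change was -0.68 ± 0.113 (SE), so that its level decreased by 37.5% (edgeR, adjusted p = 0.0243), and did not pass in Ogg1-/- (-0.44, adjusted p = 0.155) or DKO (-0.42, adjusted p = 0.194). This call rested on the libraries in the fit. The adjusted p became 0.134, 0.131 and 0.0594 without WT replicate 1, 2 or 3, and 0.153 and 0.11 without Mutyh-/- replicate 1 or 2, at log2 fold changes between -0.74 and -0.62.

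Actg1 shares reads with near-identical copies, which makes its level uncertain. The pseudogene Gm12715 matched it over 1128 bases at 99.6% identity and held 45433 counts over the 24 libraries beside 120220 of Actg1. Summed with its 6 copies of at least 95% identity, which made up 30.2% to 32.4% of the sum, Actg1 was at 144.3 ± 10.9 CPM in WT and 89.66 ± 1.101 CPM in Mutyh-/- of NeuN-, and the log2 ratio of these means was -0.69. The ratios in NeuN+ were -0.45 in Mutyh-/-, -0.63 in Ogg1-/- and -0.58 in DKO, near those of Actg1 alone. The miRNA genes Gm23419 (84 bases) and Mir6935 (64 bases), also lie within Actg1 on its strand.

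The promoter of Actg1 is shown because it held the CArG box, the binding sequence of Srf. The stretch from -150 to -50 of the RefSeq start (GRCm38.p6, chr11:120348545-120348645, minus strand) is printed 5′ to 3′ with matches to the searched motifs in capitals.
Actg1: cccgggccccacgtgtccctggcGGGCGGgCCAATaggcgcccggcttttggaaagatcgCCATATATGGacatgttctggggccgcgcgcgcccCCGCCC
From the 5′ end the capitals mark GGGCGG at position -127, then CCAAT at position -120, the CArG box at position -90 and a second GGGCGG, on the other strand, at position -55. In 32851 promoters of 300 bases from RefSeq, searched on both strands, the CArG box stood in 1.63%, GGGCGG in 35.7%, CCAAT in 37.4% and TATAAA in 13.6%. Of the 7 members with a promoter in the table, 1 held a CArG box (Actg1), 7 held GGGCGG, 3 held CCAAT (Actg1, Cfl1 and Cfl2) and 0 held TATAAA. Actb had no entry. The 5 listed genes of Srf and its cofactors were not called against WT in any genotype of NeuN+. Of all genes 0.428%, 0.574% and 0.302% were called in Mutyh-/-, Ogg1-/- and DKO, so that a count of 0 says nothing of these 5. Their medians were 0.069, 0.030 and 0.041 in that order, with log2 fold changes between -0.046 and 0.34. The part of Srf in the members' values was not tested.

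Pfn1, the profilin of most tissues (chr11:70651850-70654644, minus strand), was at 8.24, 9.14 and 8.97 CPM in WT of NeuN+, 8.21, 8.82 and 6.49 CPM in Mutyh-/-, 7.23, 6.76 and 6.29 CPM in Ogg1-/- and 7.70, 7.16 and 6.41 CPM in DKO. Ogg1-/- and DKO lay below WT and Mutyh-/- overlapped it. The log2 fold change was -0.17 in Mutyh-/- and -0.31 in DKO, with adjusted p = 0.414 and 0.214 by edgeR. In NeuN- nuclei Pfn1 ranged from 11.9 to 14.8 CPM over the 12 libraries, and its log2 fold changes of -0.057, -0.17 and -0.19 in Mutyh-/-, Ogg1-/- and DKO did not pass (adjusted p = 0.734, 0.294 and 0.279).

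Pfn2, the brain profilin (chr3:57841895-57848079, minus strand), was at 36.0, 36.9 and 35.6 CPM in WT of NeuN+, 31.2, 31.7 and 23.6 CPM in Mutyh-/-, 26.2, 25.96 and 23.5 CPM in Ogg1-/- and 28.8, 29.3 and 22.4 CPM in DKO. The WT libraries lay close together, and no library of a knockout reached them. Pfn2 in WT and Ogg1-/- of NeuN+ had chosen the group, so this separation is a description. The comparisons of Mutyh-/- and DKO share these WT libraries. In Mutyh-/- the log2 fold change was -0.33 ± 0.109 (SE, adjusted p = 0.136) and in DKO -0.43 ± 0.108 (adjusted p = 0.0983), below the fold limit of 0.5 in both. In NeuN- nuclei Pfn2 was at 23.1, 24.3 and 25.3 CPM in WT, 25.8, 24.4 and 20.6 CPM in Mutyh-/-, 20.9, 22.4 and 21.3 CPM in Ogg1-/- and 22.4, 24.1 and 21.1 CPM in DKO. Mutyh-/- and DKO overlapped WT there, and the log2 fold changes of -0.036, -0.17 and -0.10 did not pass (adjusted p = 0.885, 0.441 and 0.62).

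Cfl1, the main cofilin of non-muscle cells (chr19:5490455-5495201, plus strand), was at 39.6, 45.6 and 41.6 CPM in WT of NeuN+, 35.0, 35.4 and 25.8 CPM in Mutyh-/-, 29.5, 28.4 and 25.3 CPM in Ogg1-/- and 29.1, 30.5 and 23.3 CPM in DKO, with every knockout library below WT. In NeuN+ libraries labelled DKO it fell by 0.61 ± 0.117 on the log2 scale (SE, edgeR, adjusted p = 0.0362), and its change of -0.40 in Mutyh-/- did not pass (adjusted p = 0.104). The call in DKO was lost without WT replicate 1, 2 or 3 (adjusted p = 0.0732, 0.237 and 0.113) or DKO replicate 2 or 3 (adjusted p = 0.0526 and 0.123), at log2 fold changes between -0.69 and -0.50. In NeuN- nuclei Cfl1 was at 52.0, 48.7 and 47.4 CPM in WT, 43.5, 45.0 and 37.0 CPM in Mutyh-/-, 40.1, 38.4 and 36.6 CPM in Ogg1-/- and 40.6, 40.4 and 31.8 CPM in DKO. All knockouts lay below WT, and the log2 fold changes of -0.24, -0.37 and -0.39 did not pass (adjusted p = 0.293, 0.162 and 0.157).

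Snx32, a sorting nexin gene on the opposite strand, overlaps Cfl1 over 2967 bases, and the strand setting of the counting is not given in the sources used here, so reads of the pair may not be told apart. Snx32 differed from WT by -0.17, -0.26 and -0.25 (log2) in Mutyh-/-, Ogg1-/- and DKO of NeuN+. The promoter of Cfl1 (-150 to -50, chr19:5490305-5490405, plus strand, GRCm38.p6) is shown beside that of Actg1 as a member called lower whose promoter held no CArG box, with CCAAT at -146 in capitals.
Cfl1: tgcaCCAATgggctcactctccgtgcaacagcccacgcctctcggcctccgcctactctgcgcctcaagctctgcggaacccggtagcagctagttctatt

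Cfl2, the cofilin known from muscle (chr12:54858809-54862877, minus strand), was the lowest member in neurons. In NeuN+ nuclei it was at 4.86, 4.13 and 4.84 CPM in WT, 4.29, 4.99 and 3.61 CPM in Mutyh-/-, 3.66, 3.64 and 3.81 CPM in Ogg1-/- and 3.94, 4.41 and 3.73 CPM in DKO. Only Ogg1-/- lay apart from WT, and the log2 fold changes of -0.11 in Mutyh-/- and -0.20 in DKO did not pass (adjusted p = 0.663 and 0.486). In NeuN- nuclei it ranged from 6.64 to 10.7 CPM, with log2 fold changes of -0.16, -0.20 and -0.19 in Mutyh-/-, Ogg1-/- and DKO (adjusted p = 0.604, 0.573 and 0.56).

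Tmsb4x, the X-linked beta-thymosin that is the main holder of single actin subunits in many cells (chrX:167207093-167209315, minus strand), was at 32.5, 34.7 and 33.0 CPM in WT of NeuN+, 27.8, 29.8 and 21.2 CPM in Mutyh-/-, 24.3, 20.6 and 18.5 CPM in Ogg1-/- and 23.6, 23.3 and 18.7 CPM in DKO. No knockout library was as high as any of WT. In NeuN+ libraries labelled DKO it fell by 0.61 ± 0.121 on the log2 scale (SE, edgeR, adjusted p = 0.0404), and its -0.35 in Mutyh-/- did not pass (adjusted p = 0.149). Without WT replicate 1, 2 or 3 the adjusted p in DKO was 0.096, 0.237 and 0.131, and without DKO replicate 2 or 3 it was 0.0648 and 0.161, at log2 fold changes between -0.66 and -0.51. In NeuN- nuclei it ranged from 23.0 to 37.5 CPM over the libraries. Ogg1-/- lay below WT there (23.96 to 27.6 against 31.4 to 37.5 CPM), yet the log2 fold changes of -0.092, -0.37 and -0.28 in Mutyh-/-, Ogg1-/- and DKO did not pass (adjusted p = 0.8, 0.271 and 0.402).

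Tmsb10, a beta-thymosin that is high in young neurons (chr6:72957347-72958748, minus strand), was at 6.27, 7.68 and 6.80 CPM in WT of NeuN+, 4.94, 4.51 and 4.48 CPM in Mutyh-/-, 5.65, 4.86 and 5.26 CPM in Ogg1-/- and 4.94, 4.95 and 4.37 CPM in DKO. All knockout libraries lay below all of WT. In libraries labelled Mutyh-/- it fell by 0.58 ± 0.0956 on the log2 scale, or decreased by 32.9% (SE, edgeR, adjusted p = 0.0104), and in those labelled DKO it fell by 0.54 ± 0.0943 (adjusted p = 0.0214). The call in Mutyh-/- was lost without WT replicate 2 or Mutyh-/- replicate 2 (adjusted p = 0.0953 and 0.0541, log2 fold change -0.49 and -0.56). That in DKO was lost without WT replicate 2 or 3 (adjusted p = 0.163 and 0.0846, log2 fold change -0.45 and -0.55) or DKO replicate 2 or 3 (adjusted p = 0.0526 and 0.0954, log2 fold change -0.57 and -0.48).

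In NeuN- nuclei Tmsb10 was at 3.16, 2.81 and 2.55 CPM in WT, 2.78, 2.21 and 2.91 CPM in Mutyh-/-, 2.84, 2.21 and 2.26 CPM in Ogg1-/- and 2.49, 2.71 and 2.77 CPM in DKO. All knockouts overlapped WT, and none of the log2 fold changes of -0.11, -0.22 and -0.10 passed (adjusted p = 0.776, 0.59 and 0.802). The promoter of Tmsb10, the member called in both Mutyh-/- and DKO of NeuN+, is printed from -150 to -50 of its first RefSeq start (chr6:72958798-72958898, minus strand, GRCm38.p6). It has no capitals, since none of the 4 motifs stood in this stretch.
Tmsb10: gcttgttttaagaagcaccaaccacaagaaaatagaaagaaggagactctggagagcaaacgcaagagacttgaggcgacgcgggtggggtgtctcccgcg

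**Figure D1:**
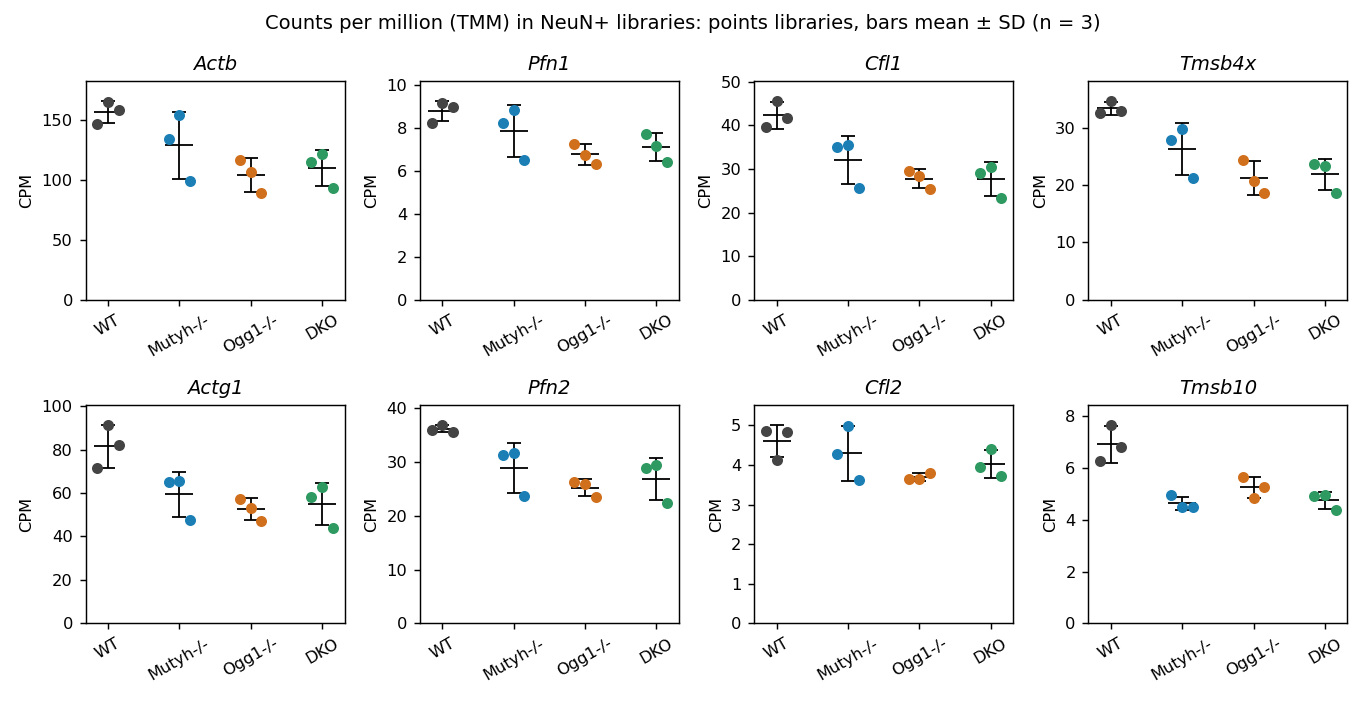
CPM (y axis, from 0) of the 8 genes in NeuN+ libraries by genotype (x axis), with 1 point per library and bars for the mean ± SD (n = 3). Tmsb10 lay at 6.27 to 7.68 CPM in WT and at 4.37 to 5.65 CPM in the 9 knockout libraries.

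Seen over the 8 members, all log2 fold changes against WT were below 0 in each of the 3 NeuN+ comparisons, which share their WT libraries. In Mutyh-/- the members' median was -0.34 beside -0.0086 over all genes tested, and 1 of 8 was called lower (adjusted p under 0.05 and a log2 fold change beyond 0.5) where 0.133% of all genes were. In 5 of 8 the 3 Mutyh-/- libraries lay below the 3 of WT, as in 10.8% of all genes. In DKO the median was -0.53 beside -0.00053 over all genes, 3 of 8 were called lower (background 0.246%), and 7 of 8 lay below WT without overlap (background 9.49%), all but Cfl2. The count of 1 in Mutyh-/- became 0 without WT replicate 2 or Mutyh-/- replicate 2. That of 3 in DKO became 1 without WT replicate 1 and 0 without WT replicate 2 or 3 or DKO replicate 2 or 3.

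Ogg1-/- against WT in NeuN+ is the comparison that had chosen Pfn2, so its values are a description. The log2 fold change was -0.59 for Actb, -0.63 for Actg1, -0.38 for Pfn1, -0.52 for Pfn2, -0.61 for Cfl1, -0.32 for Cfl2, -0.66 for Tmsb4x and -0.40 for Tmsb10, with a median of -0.56 beside 0.0086 over all genes. Actg1, Pfn2, Cfl1 and Tmsb4x were inside both DEG limits, with Pfn2 the nearest to the fold limit. Actb was beyond the fold limit and outside the limit on the adjusted p, and Pfn1, Cfl2 and Tmsb10 were outside both limits. The count of 4 stood beside 0.392% of all genes called lower, and all 8 lay below WT without overlap, as 10.2% of all genes did. The count was 2 without Ogg1-/- replicate 1 and 0 without Ogg1-/- replicate 2 or 3 or without any 1 of the WT replicates.

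In NeuN- nuclei, which the choice of members did not use, all 8 log2 fold changes were again below 0 in the 3 comparisons, which share their own WT libraries. The members' medians were -0.14 in Mutyh-/-, -0.29 in Ogg1-/- and -0.23 in DKO, beside -0.0052, 0.00085 and 0.0066 over all genes. In Mutyh-/- 1 of 8 was called lower (Actg1, background 0.107%), and 0 without any 1 of the WT replicates or without Mutyh-/- replicate 1 or 2. In Ogg1-/- and DKO 0 of 8 were called, beside 0.1% and 0.0628% of all genes called lower, by edgeR and also by DESeq2. In each, 5 of 8 members had an unadjusted p under 0.05, beside 11.8% and 12.4% of all genes. Without overlap, 4 of 8 lay below WT in Mutyh-/- (background 10.2%), 7 in Ogg1-/- (background 10.7%) and 4 in DKO (background 9.15%). Actb, Actg1 and Cfl1 lay below WT in all 3. The share of all genes that did so was not counted, and the 3 comparisons are not independent, as their WT libraries are the same. In bulk nuclei, fewer cells of a type with much of a transcript and less of it per cell cannot be told apart.

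**Figure D2:**
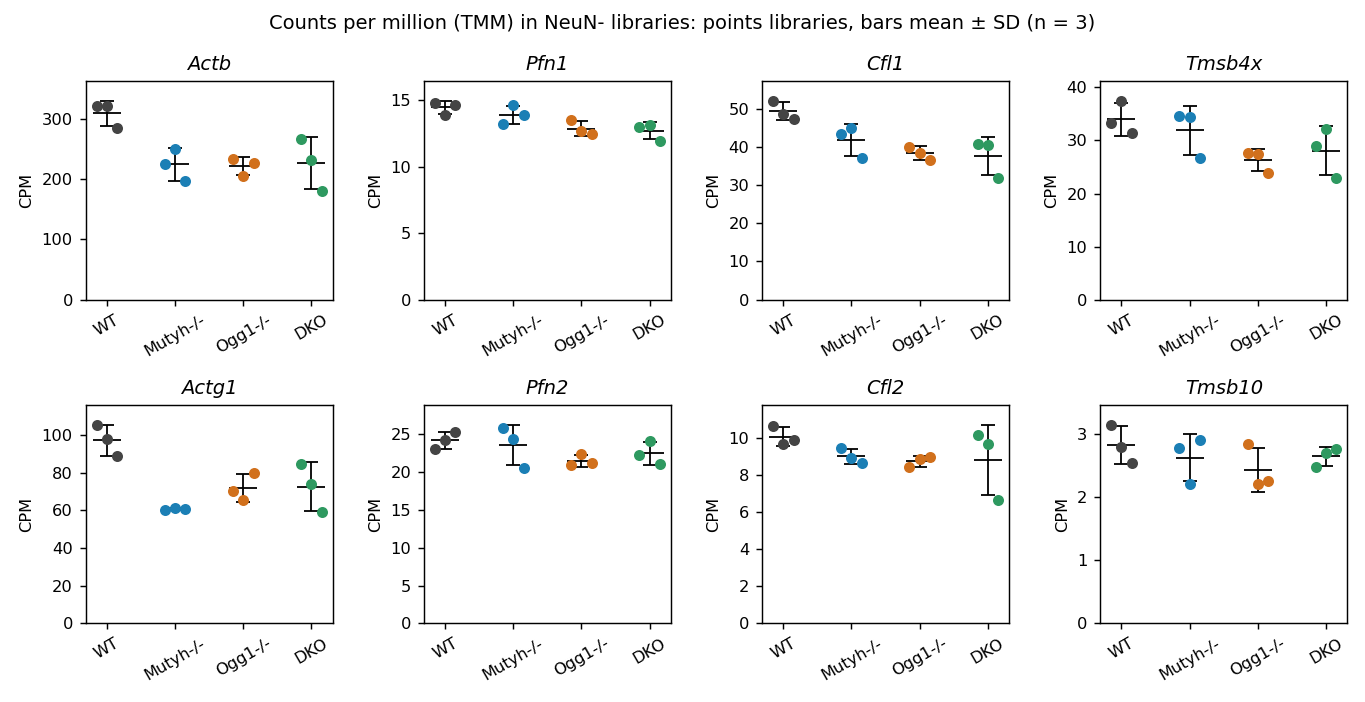
CPM (y axis, from 0) of the 8 genes in NeuN- libraries by genotype (x axis), with 1 point per library and bars for the mean ± SD (n = 3). Actg1 lay at 88.9 to 105 CPM in WT and at 60.4 to 61.5 CPM in Mutyh-/-, whereas Tmsb10 overlapped in all genotypes.

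**Figure D3:**
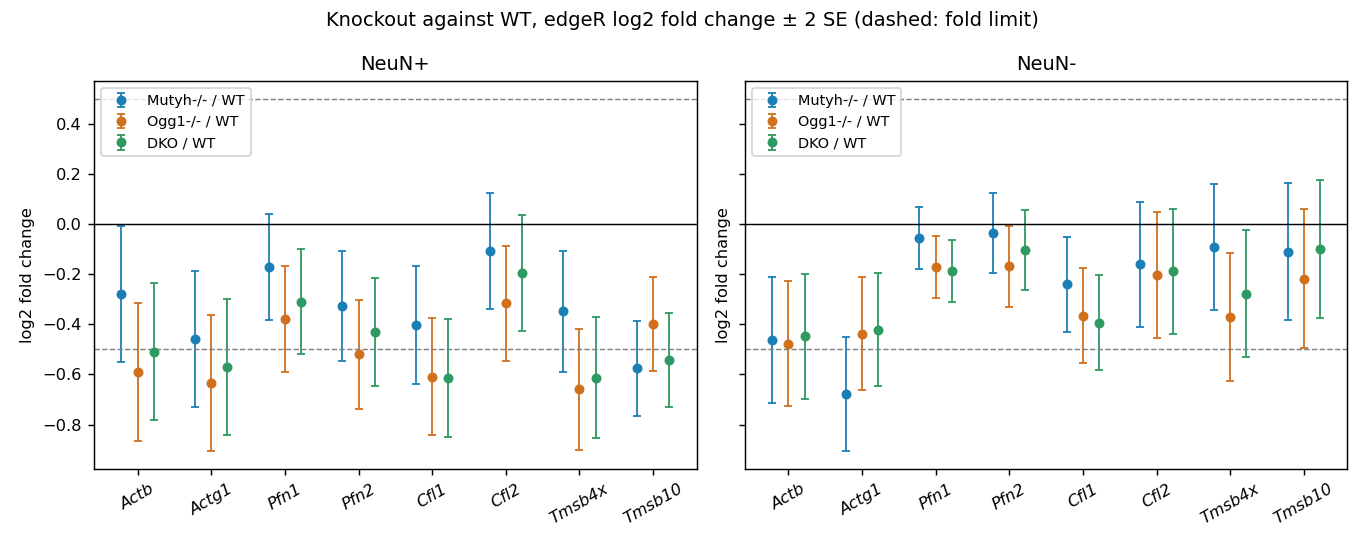
Log2 fold changes against WT (y axis) of each member (x axis) in the 3 knockouts, NeuN+ and NeuN- in separate panels, with bars of 2 SE on either side and dashed lines at the fold limit of 0.5. All points lie below 0, and that of Pfn2 in Mutyh-/- of NeuN- (-0.036) lies nearest to it.

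The knockouts were then compared with each other, to see whether the members differed between genotypes. By edgeR 0 of 8 were called in any of the 6 comparisons, and by DESeq2 0 as well. In NeuN+ the share of all genes called was 0.216% for DKO against Ogg1-/-, 0.139% for DKO against Mutyh-/- and 0.485% for Ogg1-/- against Mutyh-/-. An unadjusted p under 0.05 was held by 4.26%, 6.86% and 12.7% of all genes and by 0, 1 and 2 members. These were Tmsb4x in DKO against Mutyh-/- (log2 fold change -0.26, adjusted p = 0.721) and Actb and Tmsb4x in Ogg1-/- against Mutyh-/- (-0.31 each). In NeuN- the shares of all genes called were 0.132%, 0.122% and 0.521%. An unadjusted p under 0.05 was held by 4.34%, 11% and 11.5% of all genes and by 0, 1 and 1 members. Actg1 was higher by 0.26 in DKO than in Mutyh-/- without passing (adjusted p = 0.436), and Tmsb4x differed by -0.28 in Ogg1-/- against Mutyh-/-. Counts this small beside these shares say nothing of the members.

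The members were also compared between the cell types in each of the 4 genotypes. On a common scale of 24 libraries Tmsb10 was higher in NeuN+ by 1.53 ± 0.116 (log2, SE) in WT, 1.05 ± 0.118 in Mutyh-/-, 1.35 ± 0.119 in Ogg1-/- and 1.09 ± 0.118 in DKO (edgeR, adjusted p = 4.99e-11, 3.87e-08, 6.06e-10 and 1.93e-08). It was the only member called, that is beyond a log2 fold change of 1, in a background of 21.3%, 21.8%, 21.7% and 20.8% of genes called higher in NeuN+. Its call in Mutyh-/- was lost without NeuN- replicate 2 of that genotype, where the log2 fold change was 0.94. A second member was called in Ogg1-/- without NeuN+ replicate 3 or NeuN- replicate 1, and in DKO without NeuN- replicate 3. With the limit on the adjusted p alone, which 72.4%, 73%, 73.3% and 73.9% of all genes passed, 5 of 8 members differed in each genotype. They were the same 5, each in the same direction. Neither count stood above its share of all genes, so the counts say nothing of the members as a group.

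Of these, Pfn2 was higher in NeuN+ by 0.82, 0.52, 0.48 and 0.51 in WT, Mutyh-/-, Ogg1-/- and DKO (adjusted p = 2.33e-07, 0.000115, 0.000275 and 0.000154), with all 3 NeuN+ libraries above all 3 of NeuN- in each genotype. The log2 fold change of NeuN+ against NeuN- was -0.74, -0.57, -0.84 and -0.79 for Actb, -0.48, -0.60, -0.68 and -0.59 for Pfn1 and -0.89, -0.85, -0.99 and -0.88 for Cfl2, all without overlap of the libraries. The share of all genes without overlap between the fractions was not counted, so this separation says nothing of the members. Actg1, Cfl1 and Tmsb4x did not pass in any genotype, with log2 differences between -0.22 and 0.22. With a block for each genotype and replicate number, Cfl1 passed the limit on the adjusted p in Mutyh-/-, Ogg1-/- and DKO (log2 fold change -0.16, -0.22 and -0.19, adjusted p = 0.0171, 0.00278 and 0.00631). Tmsb4x passed it in WT (0.22, adjusted p = 0.00183), and no member joined or left those beyond the fold limit. The brain profilin and Tmsb10 were thus on the neuronal side, and beta actin, Pfn1 and Cfl2 on the side that holds mainly glia. When scaled by total counts instead, the median of all genes moved to between -0.32 and -0.25. Tmsb10 was then higher in NeuN+ by 1.29, 0.83, 1.11 and 0.81, short of the limit in Mutyh-/- and DKO, Pfn2 by 0.59, 0.30, 0.24 and 0.23, Cfl2 was called lower in all 4 genotypes (-1.23 to -1.07), and Actg1, Cfl1 and Tmsb4x lay below 0 in all 4, which turned the sign of Actg1 in Mutyh-/- and of Cfl1 and Tmsb4x in WT.

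**Figure D4:**
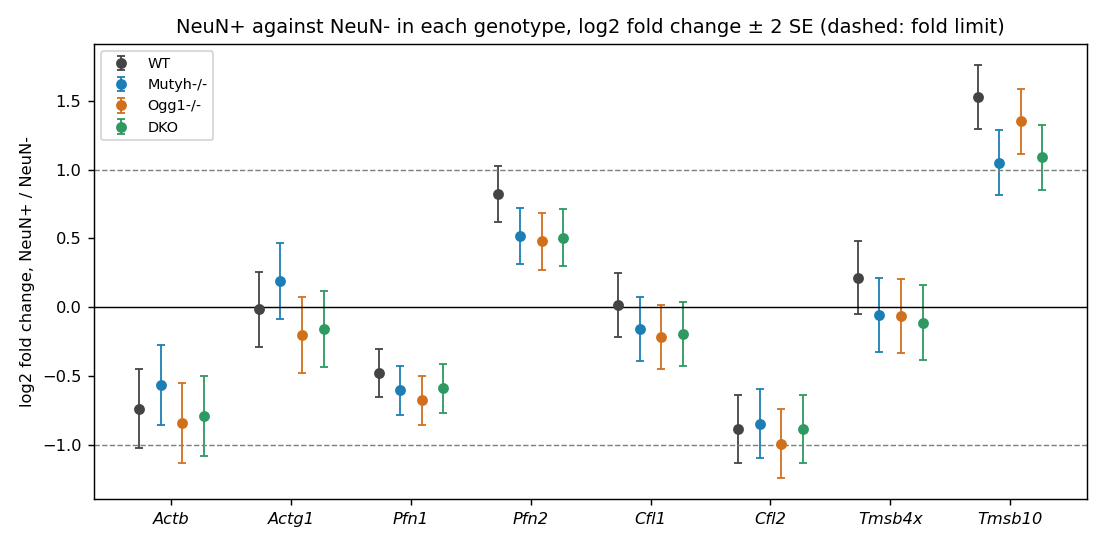
Log2 fold change of NeuN+ against NeuN- (y axis) for each member (x axis) in the 4 genotypes, with bars of 2 SE on either side and dashed lines at the fold limit of 1. Tmsb10 lies above 1 in each genotype (1.05 to 1.53), Pfn2 between 0.48 and 0.82, and Actb, Pfn1 and Cfl2 below 0.

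The interaction in the fit of 24 libraries asked whether a knockout had another effect in NeuN+ than in NeuN-. None of the 8 passed in any genotype by edgeR or DESeq2. By edgeR 0.0209%, 0.0537% and 0.0567% of all genes passed for Mutyh-/-, Ogg1-/- and DKO. An unadjusted p under 0.05 was held by 8.58%, 7.09% and 9.4% of all genes and by 2, 1 and 2 members. The 1 in Ogg1-/- was Pfn2 (-0.34 ± 0.146), in a contrast that holds the comparison which chose it, so it is a description. The other Pfn2 interactions share the WT NeuN+ libraries of that comparison. Tmsb10 differed by -0.48 ± 0.164 (log2, SE) in Mutyh-/- (adjusted p = 0.399) and by -0.43 ± 0.164 in DKO (adjusted p = 0.413), that is lower in NeuN+. Pfn2 differed by -0.30 ± 0.146 in Mutyh-/- (adjusted p = 0.58) and -0.32 ± 0.146 in DKO (adjusted p = 0.513). The intervals of 2 SE reached from -0.81 to -0.15 for Tmsb10 in Mutyh-/- and from -0.61 to -0.026 for Pfn2 in DKO. The calls in 1 cell type are therefore not shown to be particular to it.

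Ratios of the paired genes within a library, which no scaling can move, showed how the mixture of isoforms differed. Pfn2 counts were 4.12 times those of Pfn1 in WT NeuN+ libraries, 3.68 times in Mutyh-/-, 3.73 times in Ogg1-/- and 3.77 times in DKO, and 1.67 to 1.77 times in NeuN- libraries. The log2 ratio of Pfn2 to Pfn1 in NeuN+ was 2.04 ± 0.0722 in WT (SD, n = 3) and 1.88 ± 0.0431, 1.90 ± 0.042 and 1.91 ± 0.116 in the knockouts. The cell types lay far apart in this ratio and the genotypes close together.

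The log2 ratio of Actg1 to Actb was -0.95 ± 0.0915 in WT and -1.11 ± 0.11, -0.98 ± 0.0561 and -1.01 ± 0.062 in Mutyh-/-, Ogg1-/- and DKO of NeuN+, and -1.67 ± 0.0538, -1.87 ± 0.167, -1.63 ± 0.114 and -1.63 ± 0.0248 in NeuN-. That of Cfl2 to Cfl1 ran from -3.20 in WT to -2.77 in DKO of NeuN+ and from -2.29 to -2.11 in NeuN-. That of Tmsb10 to Tmsb4x was -2.28, -2.49, -2.00 and -2.19 in WT, Mutyh-/-, Ogg1-/- and DKO of NeuN+, and lay between -3.60 and -3.39 in NeuN-. Gamma actin and Tmsb10 hence took a larger share of their pair in neurons, and Cfl2 a smaller one. These ratios are a description without a test.

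Other abundant mRNAs of the cytoplasm also lay lower in the knockouts. The 8 genes summed to 377, 427 and 400 CPM in WT of NeuN+, 334, 360 and 252 CPM in Mutyh-/-, 296, 277 and 239 CPM in Ogg1-/- and 297, 312 and 236 CPM in DKO. A list of 14 abundant cytosolic mRNAs (ribosomal proteins, elongation factors, Gapdh and the like) summed to 730.5 ± 19.14 CPM in the 3 WT libraries (mean ± SD) and to 670 ± 53.41, 569 ± 67.44 and 592.7 ± 57.24 CPM in those of Mutyh-/-, Ogg1-/- and DKO. Both sums were lower than WT in every library of Ogg1-/- and DKO.

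Of the 14 genes, 12, 13 and 13 were below 0 against WT in Mutyh-/-, Ogg1-/- and DKO of NeuN+, with medians of -0.15, -0.45 and -0.36. In NeuN- 13, 14 and 14 were, with medians of -0.16, -0.28 and -0.31. In Ogg1-/- of NeuN+ 4 of the 14 were called lower, as were 4 of the 8 members there. They were Rpl8, Eef1a1, Gapdh and Ubb, with log2 fold changes of -0.58, -0.61, -0.53 and -0.60. None of the 14 was called in the other comparisons against WT. The part of the shift of these 14 genes in the members' values was not tested. Divided by the cytosolic sum of the same library, the members' sum in NeuN+ was 0.531 to 0.571 in WT and 0.549 ± 0.02 on average (SD, n = 3), beside 0.469 ± 0.054, 0.475 ± 0.018 and 0.474 ± 0.032 in the 3 knockouts, so that every knockout library lay below WT by this measure too. In NeuN- it was 0.569 ± 0.037 in WT, 0.469 ± 0.004 in Mutyh-/-, 0.514 ± 0.042 in Ogg1-/- and 0.532 ± 0.09 in DKO. The ranges of Ogg1-/- and DKO overlapped WT there.

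**Figure D5:**
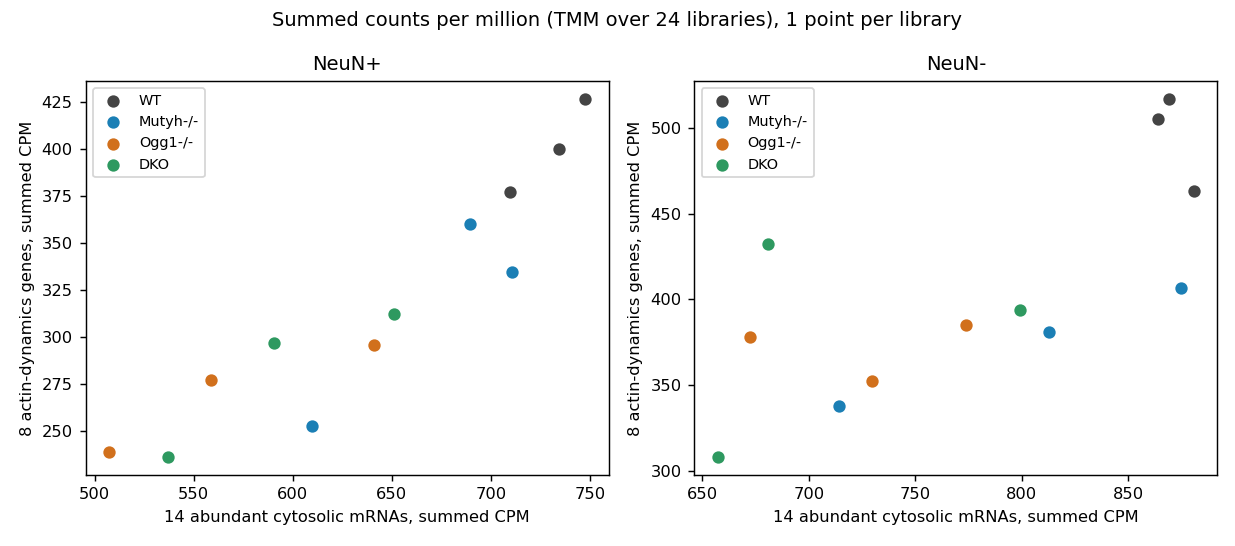
Summed CPM of the 8 members (y axis) against that of 14 abundant cytosolic mRNAs (x axis) in each library, NeuN+ and NeuN- in separate panels with axes that do not start at 0. The WT libraries lie at the upper right in both panels, at 377 to 427 CPM for the members of NeuN+ and 463 to 517 CPM for those of NeuN-.

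Marker lists of the cell types were summed beside the members. In NeuN+, neuron markers summed to 6150 CPM in WT (5976 to 6284) and 6676 in Mutyh-/- (6363 to 6934). They summed to 6372 in Ogg1-/- (6137 to 6673) and 6532 in DKO (6387 to 6718). The sums of Mutyh-/- and DKO thus lay above WT without overlap. Single neuron markers did not all move this way, as 3, 5 and 4 of 8 were below 0 against WT in Mutyh-/-, Ogg1-/- and DKO. Their median log2 fold changes were 0.026, -0.082 and -0.035, and none was called. Oligodendrocyte markers there were at 121.4, 126.4, 128.9 and 124.3 CPM in WT, Mutyh-/-, Ogg1-/- and DKO, and astrocyte markers at 323.1, 293, 302.1 and 292 CPM. Microglia markers were at 84.71 to 87.23 CPM, and choroid plexus and ependyma markers at 17.66, 13.79, 12.96 and 14.9 CPM. Against WT, 3, 2 and 4 of the 5 oligodendrocyte markers were below 0 in Mutyh-/-, Ogg1-/- and DKO. Their median log2 fold changes were -0.19, 0.0071 and -0.43, so that sum and median went different ways in Mutyh-/- and DKO. The 6 astrocyte markers were all below 0, with medians of -0.22, -0.105 and -0.249. In NeuN- oligodendrocyte markers summed to 6247, 6290, 5301 and 5201 CPM, astrocyte markers to 2979, 3321, 3646 and 3559 CPM, microglia markers to 500.3 to 533.6 CPM, and neuron markers to 522.2, 468.1, 433.2 and 420.4 CPM, with the highest neuron sum in WT. The part of these shifts in the members' values was not tested.

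The wider machinery of actin was counted beside the members. The list of 104 genes held actin relatives, the Arp2/3 complex and its activators, formins, capping and severing proteins and cofilin kinases. It also held filament binders and Srf with its cofactors. In each cell type 101 of the genes were tested. By edgeR 0 were called against WT in either direction in the 6 comparisons, where 0.116% to 0.574% of all genes were, so that a count near 0 says nothing of the list. In Mutyh-/-, Ogg1-/- and DKO of NeuN+ 22, 20 and 23 had an unadjusted p under 0.05, which is 21.8%, 19.8% and 22.8% beside 18.7%, 12.3% and 13.5% of all genes. In NeuN- 13, 13 and 14 had one, or 12.9%, 12.9% and 13.9% beside 13.7%, 11.8% and 12.4%. The list's medians were -0.025, -0.010 and -0.0014 in NeuN+ and -0.019, -0.045 and -0.029 in NeuN-, beside members' medians of -0.34, -0.56 and -0.53 and of -0.14, -0.29 and -0.23. The Arp2/3 complex, which starts new branches on filaments, had 6, 10 and 8 of 10 genes below 0 in the NeuN+ comparisons, with medians of -0.0036, -0.087 and -0.042, and none was called.

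Genes that are no members were ranked by how alike they varied across libraries. Over the 12 NeuN+ libraries the log2 CPM of Pfn2 was nearest to that of Atp6v1a (Pearson's r = 0.987), Pja2 (0.986), Eid1 (0.982), Ywhaz (0.981) and Klhl9 (0.98), with r over 4 genotypes and so including their differences. The gene nearest to Actg1 was its own copy Gm12715 (0.995), followed by Tubb2a (0.994) and Clip3 (0.992), nearest to Cfl1 were Slc25a4 (0.996), Pgam1-ps2 (0.992) and Atp5a1 (0.991), and nearest to Tmsb4x were Sod1 (0.99), 2900097C17Rik (0.989) and Eef1a1 (0.989). Tmsb10 had Sncb (0.959), Stmn1 (0.959) and Tsr2 (0.953) as its nearest. In NeuN- Actg1 was nearest to Gm12715 (0.993) and to Gm23419 (0.988), the miRNA gene inside it. Among the members themselves the 28 pairs had a median r of 0.937 in NeuN+ and 0.638 in NeuN-, and 27 and 17 pairs were above 0.5. These correlations share libraries and scaling and are given as a description.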

How the data were processed

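RNA-seq counts of 24 libraries (12 NeuN+, 12 NeuN-) were analysed. The authors aligned read pairs to GRCm38 with HISAT2 2.1.0 and deposited unnormalised counts per gene of Ensembl from featureCounts, and the strand and multi-mapping settings are not given in the sources used here. FastQC 0.11.9, SAMtools 1.10, R 4.3.2 and edgeR 3.42.4 are named in the submitters' processing notes. Here, R 4.3.3 and edgeR 4.0.16 were used: filterByExpr, TMM factors and the quasi-likelihood test on the counts as deposited, 1 fit per cell type and 1 of all 24 libraries, with Benjamini-Hochberg adjustment over all genes tested. A DEG had a log2 fold change beyond 0.5 in size, or beyond 1 between cell types, and an adjusted p under 0.05, and an interaction an adjusted p under 0.05. The coefficient of variation between libraries was 0.0823 in NeuN+ and 0.1242 in NeuN-. Levels are CPM on TMM library sizes, comparable within a fit.

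Gene positions and exon lengths came from GENCODE vM21, promoters from RefSeq (GRCm38.p6), and copies from BLAST 2.17.0 (at least 200 bases at 90% identity). Scripts were tested on simulated data. The members and all gene lists were chosen with earlier results of these data known. Named genes were the members, the targeted genes, pathway genes called against WT (0), and the genes most correlated (log2 CPM, prior count 2) with Pfn2 and with members called against WT, besides overlapping genes and copies. Alternatives were DESeq2 1.42.0, other scaling, filters and limits, fits of 2 groups, a replicate block and fits without 1 library. The block was the replicate number across genotypes within a fraction, and genotype with number between fractions. Same-numbered libraries of the fractions correlated in their deviations by 0.0107 to 0.292 over the 4 genotypes (0.128, 0.113 and 0.197 in DKO). This may hint at pairs, which the labels do not give, and libraries of unlike number were not compared. A group of genes of the actin pathway list is not reported here.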

Additional observations from a re-analysis of the deposited data

How the results depend on the processing

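No direction of a member against WT turned under another scaling, filter, tool, fold limit or fit of 2 groups, and 3 of 288 values turned sign without 1 library, all without a replicate 3. The count of members called in DKO against WT of NeuN+ rose from 3 to 5 in the fit of the 2 groups, with Actb and Actg1 added. Between cell types, the count of 1 in Ogg1-/- became 2 with DESeq2 size factors, with at least 10 counts in every library and with the DESeq2 Wald test, each time by Cfl2 at the limit. Total count scaling gave 2 in WT, 3 in Ogg1-/- and 2 in DKO, and no fold limit gave 5 in each genotype. Without 1 library, members called against WT of NeuN+ ranged from 0 to 1 for Mutyh-/-, 0 to 2 for Ogg1-/- and 0 to 3 for DKO, from 0 to 1 in Mutyh-/- against WT of NeuN-, and from 0 to 1, 1 to 2 and 1 to 2 between the cell types of Mutyh-/-, Ogg1-/- and DKO. Fewer libraries entered these fits.

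Replicate numbers are shared by the groups, but deviations of same-numbered libraries from their group means correlated between -0.223 and 0.174 across genotypes, so there the numbers were taken as names. Between the fractions of 1 genotype all correlations were above 0 (0.0107 to 0.292), and in DKO all 3 were above 0.1 (0.128, 0.113 and 0.197). With the replicate number as a block across genotypes, 1, 5 and 5 members were called in Mutyh-/-, Ogg1-/- and DKO of NeuN+ and 1, 0 and 0 in NeuN-. As the numbers were taken as names there, this block pairs no libraries by design. Between the cell types the block was each genotype and number, with 1 called in each genotype and 0 in the interactions.

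The order of levels depends on the division by length. Without it, Tmsb4x moved from place 3 to 5 in NeuN+, Cfl1 from 4 to 3, Pfn2 from 5 to 4, Tmsb10 from 6 to 7 and Pfn1 from 7 to 6 in all 4 genotypes. In NeuN-, Tmsb4x moved to 4 and Cfl1 to 3 in all 4 genotypes, and Actg1 moved to 2 in Mutyh-/-.

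The number of all genes called also varied. In Mutyh-/-, Ogg1-/- and DKO against WT of NeuN+ it was 129, 173 and 91, with DESeq2 398, 241 and 173, with no filter 625, 308 and 252, and in fits of 2 groups 272, 305 and 140. In NeuN- it was 87, 73 and 37, with DESeq2 219, 179 and 178, and DKO had 10 in the fit of 2 groups and 73 with no filter. With the replicate number as a block DKO had 171 in NeuN+ and 63 in NeuN-. The interactions had 7, 18 and 19, and with DESeq2 75, 65 and 206. The cause was not tested. Tmsb10 in NeuN-, at 2.21 to 3.16 CPM, was the member with the fewest reads.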

Other observations

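In NeuN+ nuclei the third library of each knockout was the lowest for most members. The median deviation of the members in replicate 3 from the other libraries of its group was, on the log2 scale, -0.43, -0.17 and -0.34 for Mutyh-/-, Ogg1-/- and DKO of NeuN+ and -0.17, -0.049 and -0.38 for those of NeuN-. In WT this deviation of replicate 3 was 0.0018 in NeuN+ and -0.13 in NeuN-, where it was also the lowest of its group. Replicate numbers are names and give no order.

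The markers of choroid plexus and ependyma, cells that line the ventricles beside the hippocampus, varied the most between libraries of one group. Their sum in NeuN- was 46.37 ± 14.16 CPM in the 3 WT libraries (mean ± SD), 23.09 ± 1.815 CPM for Mutyh-/-, 66.96 ± 47.97 CPM for Ogg1-/-, with libraries from 11.64 to 97.09 CPM, and 96.65 ± 105.5 CPM for DKO, with libraries from 10.94 to 214.4 CPM. Its part in the members' values was not tested.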
